A study of Homo sapiens with 12 samples.

Results

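The mRNAs of 10 genes of the MAPK (RAF-MEK-ERK) pathway were followed in A375 cells, an established human melanoma line that carries an activated BRAF kinase. They were chosen by symbol from 4918 genes, which run in alphabetical order from A1BG to FAM46B, so that MEK, ERK and other pathway genes with later symbols are not analysed here. All 10 were present with a mean of at least 1 FPKM (fragments for each kilobase of transcript, relative to all mapped fragments of the sample): the RAF kinases ARAF and BRAF, the phosphatases DUSP4, DUSP5 and DUSP6, and the transcription factors ELK1, EGR1, ETV1, ETV4 and ETV5. RNA was sequenced from 12 samples in 4 groups of 3, all A375 cells harvested at 24 h. The control cells are labelled as having had no treatment, although the protocol also mentions vehicle. The SB-3CT cells received SB-3CT, an inhibitor of the matrix metalloproteinases MMP2 and MMP9, the IFNγ cells received interferon gamma, a cytokine that induces PD-L1, and the SB-3CT + IFNγ cells received both. As a single cell line grown without other cells, these samples hold no tumor tissue or immune cells.

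In the MAPK pathway, RAF kinases phosphorylate MEK, MEK phosphorylates ERK, and ERK enters the nucleus and phosphorylates transcription factors such as ELK1. ERK then induces both output genes, such as EGR1 and the PEA3 group of ETS factors (ETV1, ETV4 and ETV5), and feedback genes, such as the dual-specificity phosphatases DUSP4, DUSP5 and DUSP6, which remove phosphate from ERK. In melanoma with activated BRAF, the mRNAs of this feedback and output group are widely used as a readout of how active ERK is. The mRNAs of ARAF, BRAF and ELK1 are not part of this induced group and are not taken as such a readout here. The RAF kinases act upstream of ERK, and the ELK1 protein is a direct substrate of it.

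Expression is given as FPKM, which scales each gene by its length, and changes are differences of log2(FPKM + 1), a scale that compresses the changes of low genes. Changes are given with the standard error (SE) of limma, which fits a linear model to each gene and draws on all genes for its variance. Benjamini-Hochberg adjusted p-values are given with them, for which all 4918 genes were counted. A gene is called higher or lower at an adjusted p-value under 0.05. Shares of all genes are over these 4918, of which 3177 had a mean of at least 1 FPKM. All 10 genes followed here had such a mean, so the shares are not those of genes with like expression. With SB-3CT alone, a filter at a mean of 1 FPKM raised the number of genes called. Nothing in the labels states that the 3 samples of a group were separate cultures, so the p-values measure the spread between these samples. The comparisons share samples with each other, and their values are set side by side without a test of likeness.

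The read number of the samples is unknown, but steps in the lowest values gave depths between 87.2% and 150.1% of the control mean. The 3 SB-3CT + IFNγ samples stood apart from the other 9 in 2 ways that touch every comparison with that group. Their size factors by the median ratio were between −0.21 and −0.18 on the log2 scale, against −0.02 to 0.12 in the others. Their genes also deviated from the mean of all samples by transcript length, with slopes between −0.16 and −0.13 on the log2 scale per doubling of length, against −0.05 to 0.14 in the others. The median change of the 3177 genes with a mean of at least 1 FPKM was accordingly −0.20 between SB-3CT + IFNγ and IFNγ, −0.21 between SB-3CT + IFNγ and SB-3CT, and −0.19 for the interaction, against −0.04 and −0.03 for IFNγ and SB-3CT against control. Changes in the first 3 are therefore also given after each sample was scaled by its median ratio, which brings the median change to between −0.02 and 0.00. FPKM values, group orders and overlaps are as deposited unless a scaling is named. Some orders that involve the SB-3CT + IFNγ samples change after median ratio scaling. IFNγ replicate 2 was the lowest of its group in 9 of the 10 genes and in 64.1% of the 3177 genes. Of the melanoma lineage markers, CSPG4, ERBB3 and EDNRB were expressed, whereas DCT, ABCB5, BIRC7 and CAPN3 were near 0, and the measured leukocyte, fibroblast, endothelial and epithelial markers had means under 0.37 FPKM in all 4 groups.

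The promoters of EGR1 and DUSP6 are shown because, with SB-3CT alone, EGR1 had the lowest adjusted p-value of the output genes and DUSP6 that of the feedback genes. Both are from RefSeq (GRCh38.p14) and run from 250 bases before to 50 bases after the gene start, and 6 of the 10 genes had such an entry. In EGR1, at chr5:138465229-138465528 on the plus strand, the capitals mark the CArG boxes, the sequence CC, 6 bases of A or T, then GG, to which serum response factor binds together with ELK1-type ETS factors:
EGR1: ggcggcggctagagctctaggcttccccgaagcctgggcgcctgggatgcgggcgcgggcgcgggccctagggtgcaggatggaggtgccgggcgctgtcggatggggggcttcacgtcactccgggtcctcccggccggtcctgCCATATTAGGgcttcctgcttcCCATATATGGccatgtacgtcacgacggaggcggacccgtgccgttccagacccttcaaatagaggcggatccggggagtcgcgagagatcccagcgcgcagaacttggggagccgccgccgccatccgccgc
In DUSP6, at chr12:89352452-89352751 on the minus strand, the capitals mark GGAA or its reverse complement TTCC, the core bound by ETS factors:
DUSP6: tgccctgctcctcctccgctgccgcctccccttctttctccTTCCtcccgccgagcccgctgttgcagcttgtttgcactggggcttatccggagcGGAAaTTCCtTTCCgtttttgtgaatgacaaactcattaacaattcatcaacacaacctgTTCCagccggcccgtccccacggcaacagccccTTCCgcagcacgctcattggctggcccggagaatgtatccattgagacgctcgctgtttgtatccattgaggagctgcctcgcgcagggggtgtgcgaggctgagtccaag
The EGR1 window held 2 CArG boxes, whose first bases lie 105 and 83 bases before the start, and a CArG box on either strand occurs in 1.29% of the 35116 promoter windows of this length. The DUSP6 window held no CArG box and 6 GGAA cores, but at least 1 such core occurs in 95.5% of all windows. The longer letters CCGGAA, found in 17.2% of windows on either strand, were in neither. A match of letters is a description of the sequence and does not show binding.

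Of the RAF kinases, which phosphorylate MEK, ARAF was by far the more abundant mRNA per length. ARAF (chromosome X, 47420604 to 47431307, hg19) was measured at 31.5, 33.5 and 33.4 FPKM in the control samples, 36.9, 35.3 and 39.7 in the SB-3CT samples, 35.8, 31.7 and 38.6 in the IFNγ samples, and 33.7, 32.5 and 31.8 in the SB-3CT + IFNγ samples. As deposited, its SB-3CT samples lay above all control and all SB-3CT + IFNγ samples, while every other pair of groups overlapped. After median ratio scaling the SB-3CT + IFNγ samples (36.7 to 38.2) overlapped the SB-3CT samples (34.2 to 38.5). BRAF (chromosome 7, 140419127 to 140624729) was low, at 2.33, 2.19 and 2.00 FPKM in the control samples, 2.44, 2.15 and 1.60 in the SB-3CT samples, 2.51, 2.01 and 2.08 in the IFNγ samples, and 1.32, 1.69 and 1.63 in the SB-3CT + IFNγ samples. The SB-3CT + IFNγ samples were the lowest, apart from SB-3CT replicate 3, which fell among them. The 3 other groups overlapped each other. The mean ARAF to BRAF ratio of FPKM was 15.2 ± 1.57 (SD, n = 3) in control and 21.4 ± 3.53 (SD, n = 3) with SB-3CT + IFNγ, without overlap. With the length trend removed the ratio with SB-3CT + IFNγ was 18.8 ± 2.66 (SD, n = 3) and overlapped control. The 3′ end of BRAF overlaps NDUFB2 on the opposite strand, and whether reads were counted by strand is not given in the sources used here.

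DUSP4, DUSP5 and DUSP6 remove phosphate from ERK, the first 2 in the nucleus and DUSP6 in the cytoplasm, and each had its own order of the 4 groups. DUSP4 (chromosome 8, 29190581 to 29208201) was measured at 60.4, 60.1 and 62.3 FPKM in the control samples, 64.3, 58.7 and 60.9 in the SB-3CT samples, 53.8, 44.4 and 50.7 in the IFNγ samples, and 39.1, 38.9 and 37.9 in the SB-3CT + IFNγ samples. Control and SB-3CT overlapped, all IFNγ samples lay below both, and all SB-3CT + IFNγ samples lay below IFNγ. DUSP5 (chromosome 10, 112257665 to 112271291) was measured at 11.0, 11.9 and 10.6 FPKM in the control samples, 16.1, 13.6 and 13.3 in the SB-3CT samples, 10.1, 6.74 and 7.75 in the IFNγ samples, and 8.72, 9.59 and 8.76 in the SB-3CT + IFNγ samples. As deposited, SB-3CT was above control, control was above both groups that received IFNγ, and those 2 groups overlapped. After median ratio scaling the SB-3CT + IFNγ samples (9.88 to 10.9) overlapped control (9.87 to 11.3) and lay above the IFNγ samples (6.84 to 9.36). DUSP6 (chromosome 12, 89741012 to 89746278) had the tightest control samples, at 40.9, 40.9 and 40.7 FPKM, against 35.5, 33.7 and 34.6 in the SB-3CT samples, 43.1, 35.4 and 40.4 in the IFNγ samples, and 26.7, 27.7 and 28.8 in the SB-3CT + IFNγ samples. As deposited, the SB-3CT samples lay below all control samples, the IFNγ samples spanned both, and the SB-3CT + IFNγ samples were below all others. After median ratio scaling the SB-3CT + IFNγ samples (30.3 to 33.2) overlapped the SB-3CT samples (33.0 to 33.6). DUSP5 has a pseudogene, DUSP5P1, with which it may share reads.

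ELK1, the ETS factor that ERK phosphorylates directly, and EGR1, the immediate-early zinc finger factor it helps to induce, were the 2 genes that were highest in a treated group and lowest in control. ELK1 (chromosome X, 47494920 to 47510003) was measured at 34.7, 32.8 and 35.5 FPKM in the control samples, 38.1, 42.2 and 43.8 in the SB-3CT samples, 53.7, 53.3 and 58.5 in the IFNγ samples, and 49.5, 45.3 and 45.8 in the SB-3CT + IFNγ samples. As deposited, its 4 groups did not overlap, in the order control, SB-3CT, SB-3CT + IFNγ and IFNγ from low to high. After median ratio scaling the SB-3CT + IFNγ samples (51.4 to 56.1) overlapped the IFNγ samples (49.6 to 56.4). EGR1 (chromosome 5, 137801168 to 137804992) was measured at 4.51, 5.54 and 5.83 FPKM in the control samples, 8.48, 7.44 and 8.95 in the SB-3CT samples, 5.99, 6.17 and 6.37 in the IFNγ samples, and 7.20, 6.79 and 5.86 in the SB-3CT + IFNγ samples. As deposited, the SB-3CT samples were above all others and the control samples were below all others, while IFNγ and SB-3CT + IFNγ overlapped. After median ratio scaling the SB-3CT + IFNγ samples (6.76 to 8.16) overlapped the SB-3CT samples (7.29 to 8.69) and lay above the IFNγ samples (5.53 to 6.26).

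ETV1, ETV4 and ETV5 are the 3 PEA3-group ETS factors, and ETV4 was the most abundant of the 10 mRNAs per length. ETV1 (chromosome 7, 13930854 to 14031050) was measured at 6.57, 5.87 and 6.82 FPKM in the control samples, 5.27, 4.35 and 4.76 in the SB-3CT samples, 7.27, 5.76 and 7.16 in the IFNγ samples, and 3.34, 3.48 and 3.26 in the SB-3CT + IFNγ samples. Control and IFNγ overlapped, SB-3CT lay below both, and SB-3CT + IFNγ lay below SB-3CT. ETV4 (chromosome 17, 41605212 to 41656988) was measured at 81.6, 76.6 and 83.2 FPKM in the control samples, 85.5, 90.7 and 85.9 in the SB-3CT samples, 67.4, 67.0 and 73.3 in the IFNγ samples, and 62.9, 60.6 and 58.9 in the SB-3CT + IFNγ samples. As deposited, its 4 groups did not overlap, in the order SB-3CT, control, IFNγ and SB-3CT + IFNγ from high to low. After median ratio scaling the SB-3CT + IFNγ samples (68.0 to 71.3) overlapped the IFNγ samples (62.2 to 70.6). ETV5 (chromosome 3, 185764103 to 185828107) was measured at 17.4, 17.3 and 18.2 FPKM in the control samples, 17.8, 15.7 and 18.0 in the SB-3CT samples, 19.0, 17.2 and 17.6 in the IFNγ samples, and 12.8, 13.9 and 13.5 in the SB-3CT + IFNγ samples. As deposited, the first 3 groups overlapped and the SB-3CT + IFNγ samples were below all of them. After median ratio scaling the SB-3CT + IFNγ samples (14.5 to 15.7) overlapped the SB-3CT samples (15.4 to 17.5). ETV4 lies within DHX8, which is on the opposite strand, and ETV5 overlaps DGKG and the antisense gene ETV5-AS1, so reads of these genes may not be told apart.

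**Figure D1:**
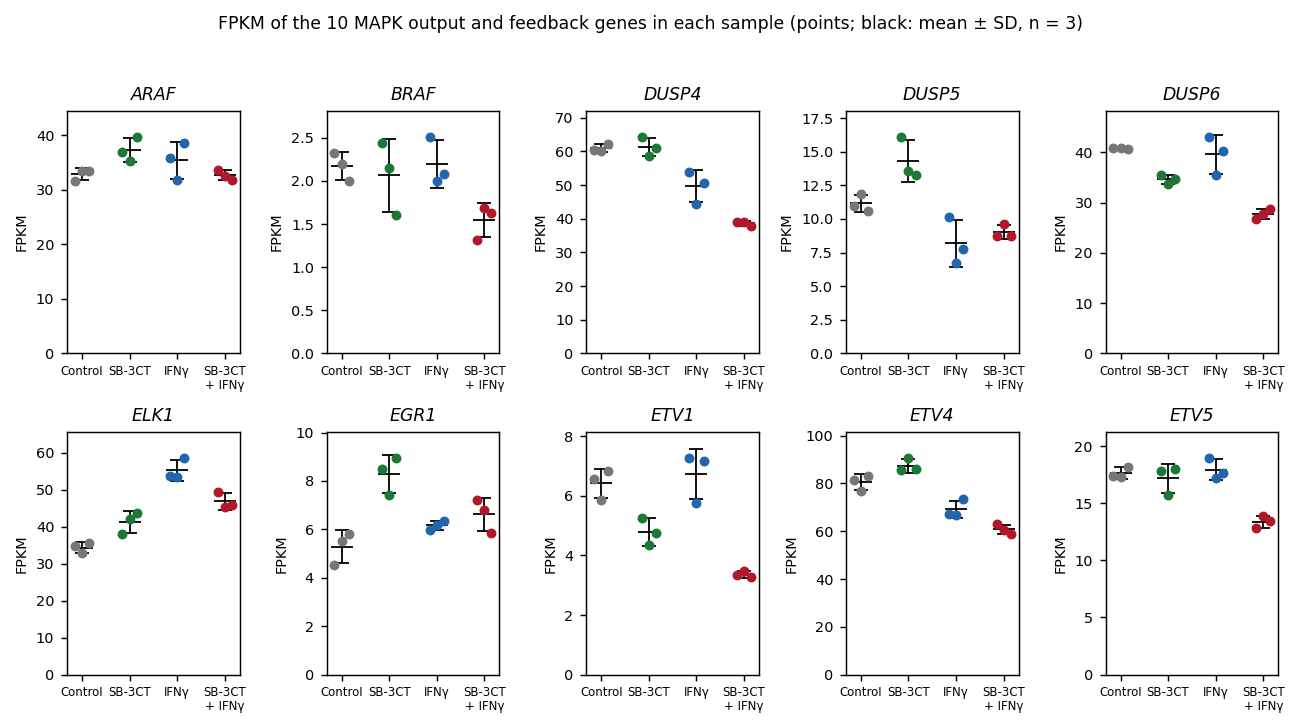
FPKM of the 10 genes in each sample by group (points, 3 per group), with the group mean and SD in black; each vertical axis starts at 0. As deposited, DUSP4, DUSP6, ETV1, ETV4 and ETV5 are lowest in the 3 SB-3CT + IFNγ samples, while ELK1 is highest in the IFNγ samples and EGR1 in the SB-3CT samples.

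SB-3CT alone, set against control, is the comparison of the inhibitor without cytokine. As the control cells are labelled as having had no treatment, a part of vehicle in these changes was not tested. EGR1 rose from 5.29 ± 0.69 to 8.29 ± 0.77 FPKM (SD, n = 3), a log2 change of 0.56 (SE 0.10, adjusted p = 0.0215). DUSP5 rose by 0.33 (SE 0.08, adjusted p = 0.0449) and ELK1 by 0.26 (SE 0.06, adjusted p = 0.0372). DUSP6 fell from 40.8 ± 0.14 to 34.6 ± 0.90 FPKM (SD, n = 3), a log2 change of −0.23 (SE 0.04, adjusted p = 0.0158), and ETV1 had a change of −0.36 (SE 0.09, adjusted p = 0.0422). The feedback phosphatases thus moved in different directions, with DUSP5 called higher, DUSP6 called lower and DUSP4 at 0.01 (95% confidence interval −0.10 to 0.11).

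In all, 5 of the 10 genes were called, 3 higher and 2 lower, where 12.2% of all genes were called, 5.37% higher and 6.87% lower. That share includes genes with a mean under 1 FPKM, whereas all 10 genes were above it, and it was larger with such genes filtered out. The groups did not overlap in 7 genes, 5 higher and 2 lower, against 33.9% of all genes, 14.2% higher and 19.7% lower. ARAF (0.18, adjusted p = 0.0722) and ETV4 (0.12, adjusted p = 0.142) were the 2 that did not overlap and were not called. ETV5 (−0.04, interval −0.19 to 0.11) and BRAF (−0.06, interval −0.33 to 0.21) were not called either, and their intervals allow changes of either sign. All 5 calls held under median ratio scaling, quantile normalization and removal of the length trend. They did not hold with fewer samples: none of the 10 genes was called by limma in 5 of the 6 fits with 1 sample omitted, where 6 or 7 had an unadjusted p-value under 0.05, although all 6 fits kept the sign of the 5 changes. Only the fit without SB-3CT replicate 1 kept the 5 calls.

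IFNγ alone, set against control, gave the largest rise of ELK1, from 34.3 ± 1.40 to 55.2 ± 2.92 FPKM (SD, n = 3), a log2 change of 0.67 (SE 0.05, adjusted p = 0.000618). DUSP4 was called lower (−0.29, SE 0.07, adjusted p = 0.0366), as was ETV4 (−0.21, SE 0.05, adjusted p = 0.0381). DUSP5 had the largest fall in size, at −0.42 (SE 0.14, adjusted p = 0.0824), but its 3 IFNγ samples were spread from 6.74 to 10.1 FPKM and it was not called as deposited or after median ratio scaling (adjusted p = 0.0622). It was called after quantile normalization (−0.46, adjusted p = 0.0344) and with the length trend removed (−0.43, adjusted p = 0.0438). EGR1, at 0.20 (SE 0.09, adjusted p = 0.206), was not called although its groups did not overlap.

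Hence 3 of the 10 genes were called, 1 higher and 2 lower, where 19.5% of all genes were called, 8.46% higher and 11% lower. The groups did not overlap in 5 genes, 2 higher and 3 lower, against 36.9% of all genes, 15% higher and 22% lower. The remaining 5 genes overlapped control, with DUSP6 at −0.05 (interval −0.22 to 0.13), ETV1 at 0.06 (−0.19 to 0.30), ETV5 at 0.02 (−0.10 to 0.15), BRAF at 0.01 (−0.20 to 0.22) and ARAF at 0.10 (−0.08 to 0.29). ELK1 was called in every fit run. The fall of DUSP4 was called under the 4 scalings but not in 4 of the 6 fits that left out a sample, and that of ETV4 was not called after median ratio scaling (adjusted p = 0.0769) or quantile normalization (adjusted p = 0.0806).

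**Figure D2:**
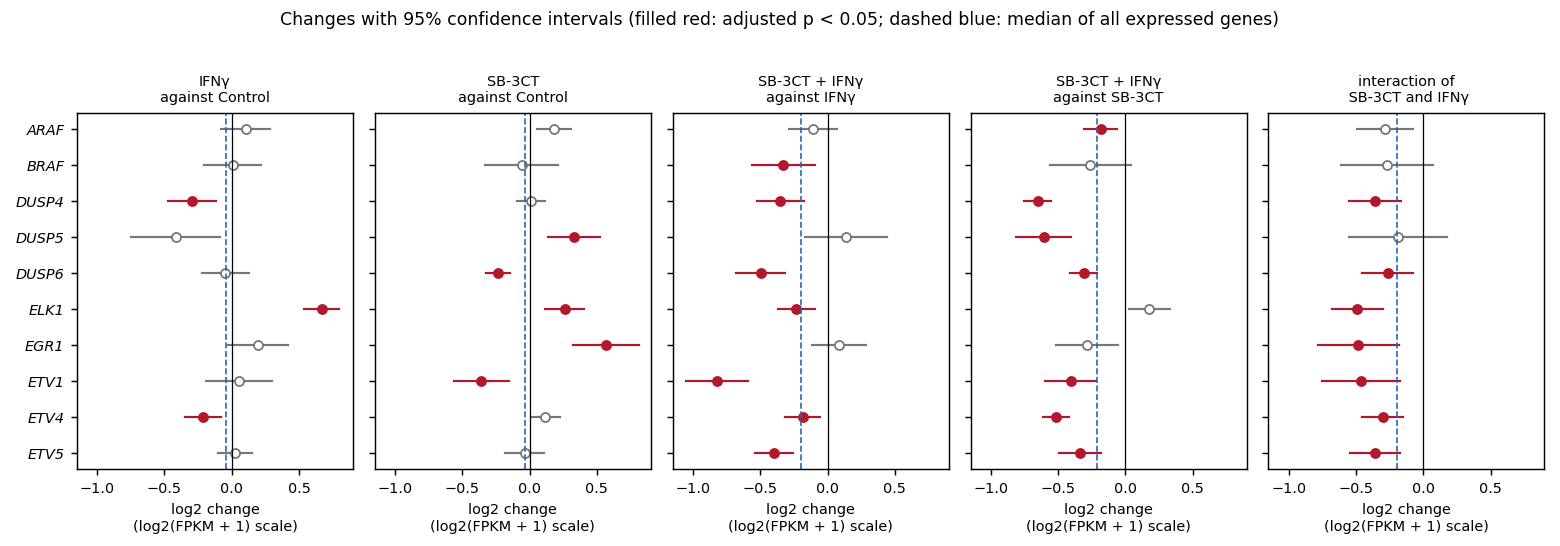
Log2 change of each gene (point) with its 95% confidence interval (line) in the 4 comparisons and for the interaction, on the log2(FPKM + 1) scale, with called genes filled and the median change of the 3177 expressed genes as a dashed line. With SB-3CT + IFNγ, 7 genes are called lower against IFNγ and 7 against SB-3CT, where 31.5% and 32.7% of all genes are called lower. In both panels the dashed line itself lies left of 0, at −0.20 and −0.21.

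SB-3CT added to IFNγ, set against IFNγ alone, was the comparison in which the PEA3 factor ETV1 fell most, from 6.73 ± 0.84 to 3.36 ± 0.11 FPKM (SD, n = 3), a log2 change of −0.82 (SE 0.10, adjusted p = 0.00212). DUSP6 had a change of −0.50 (SE 0.08, adjusted p = 0.00338) and ETV5 one of −0.40 (SE 0.06, adjusted p = 0.00336). After median ratio scaling these 3 were still called lower, at −0.63 (adjusted p = 0.00286), −0.26 (adjusted p = 0.0133) and −0.17 (adjusted p = 0.0332). On the deposited scale DUSP4 (−0.35), BRAF (−0.33), ELK1 (−0.23) and ETV4 (−0.18) were called lower too, but after median ratio scaling DUSP4 (−0.12) and BRAF (−0.18) were not called, and ELK1 (0.00) and ETV4 (0.05) were not called and had changed sign.

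Thus 7 of the 10 genes were called lower and 0 higher as deposited, where 37.9% of all genes were called, 6.41% higher and 31.5% lower, and the same 7 had groups that did not overlap, against 49% of all genes, 9.35% higher and 39.6% lower. The 3 genes not called were DUSP5 (0.14, adjusted p = 0.462), EGR1 (0.08, adjusted p = 0.505) and ARAF (−0.11, adjusted p = 0.313). After median ratio scaling 2 genes were called higher, DUSP5 (0.35, adjusted p = 0.0434) and EGR1 (0.29, adjusted p = 0.0352), and 3 lower, where 15.5% of all genes were called higher and 16.5% lower. With the length trend removed, ETV1 (−0.40, adjusted p = 0.0097) and EGR1 (0.33, adjusted p = 0.0375) were the 2 genes called, where 18.5% of all genes were called. DUSP6 was then at −0.16 (adjusted p = 0.0599) and ETV5 at −0.03 (adjusted p = 0.654). ETV1 alone was called under all 4 scalings, and it was called in all 6 fits that left out a sample. DUSP6 and ETV5 have long transcripts of 3627 and 4082 bases and ETV1 one of 6459 bases, and the part of transcript length in their falls was not tested beyond the removal of its trend.

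**Figure D3:**
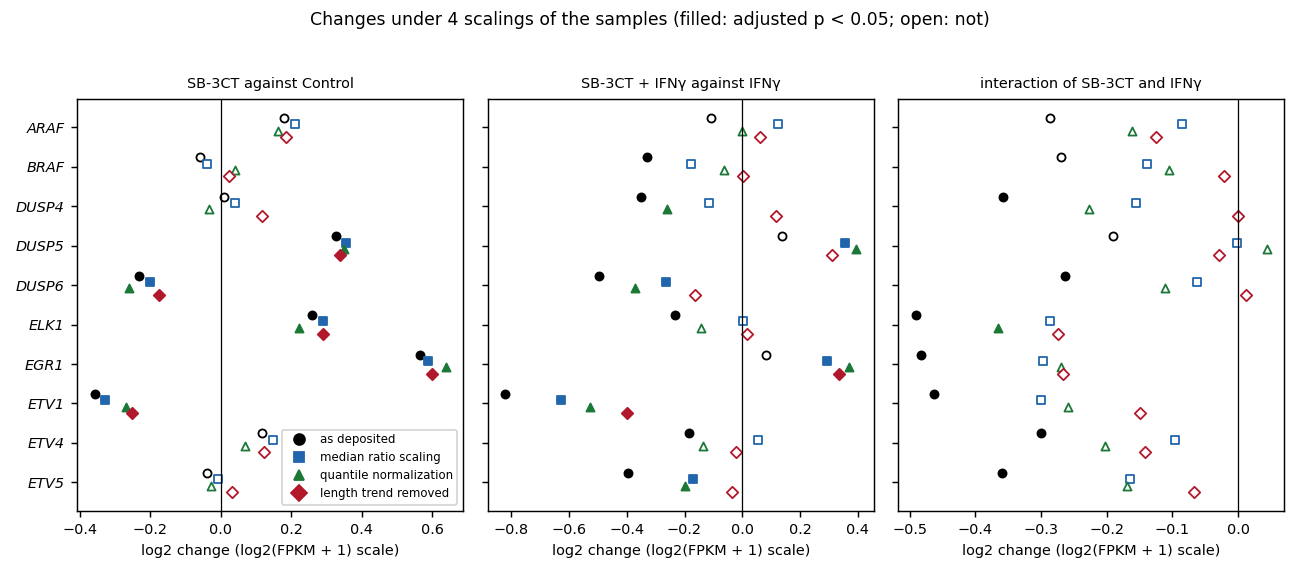
Log2 change of each gene under 4 scalings of the samples (symbols, filled where called) for SB-3CT against control, SB-3CT + IFNγ against IFNγ and the interaction. With SB-3CT alone the same 5 genes are filled under all 4 scalings, whereas with IFNγ present ETV1 is the single gene filled under all 4, and the interaction has none.

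SB-3CT + IFNγ set against SB-3CT shows the IFNγ response of cells that also had the inhibitor. DUSP4 fell from 61.3 ± 2.79 to 38.6 ± 0.65 FPKM (SD, n = 3), a log2 change of −0.65 (SE 0.04, adjusted p = 0.000242), DUSP5 had a change of −0.61 (SE 0.08, adjusted p = 0.00288) and ETV4 one of −0.51 (SE 0.04, adjusted p = 0.000498). These 3 were called lower under all 4 scalings, at −0.41, −0.38 and −0.27 after median ratio scaling. ETV1 (−0.41), ETV5 (−0.34), DUSP6 (−0.31) and ARAF (−0.18) were called lower as deposited and not after median ratio scaling, where ARAF had changed sign (0.06).

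In this comparison 7 of the 10 genes were called lower and 0 higher, where 40.5% of all genes were called, 7.85% higher and 32.7% lower. Groups did not overlap in 9 genes, 1 higher and 8 lower, against 51.7% of all genes, 9.84% higher and 41.9% lower. ELK1, the 1 that was higher, was at 0.18 (adjusted p = 0.0684) as deposited and was called at 0.42 (adjusted p = 0.0123) after median ratio scaling, and likewise under the 2 other scalings. EGR1 (−0.29, adjusted p = 0.054) and BRAF (−0.26, adjusted p = 0.144) were not called. Side by side, IFNγ moved DUSP4 by −0.29 without SB-3CT and −0.65 with it, ETV4 by −0.21 and −0.51, DUSP5 by −0.42 and −0.61, and ELK1 by 0.67 and 0.18. After median ratio scaling these pairs were −0.25 and −0.41, −0.17 and −0.27, −0.38 and −0.38, and 0.71 and 0.42. With the length trend removed they were −0.37 and −0.37, −0.23 and −0.37, −0.43 and −0.46, and 0.64 and 0.36, so that the DUSP4 values were alike.

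Whether the 2 agents added up was tested with the interaction over all 12 samples, that is, the SB-3CT change of cells with IFNγ minus the SB-3CT change of cells lacking it. As deposited, 7 of the 10 genes were called, all lower, where 22.3% of all genes were called, 4.74% higher and 17.6% lower. ELK1 (−0.49, SE 0.09, adjusted p = 0.00559), EGR1 (−0.48, SE 0.14, adjusted p = 0.0282) and ETV1 (−0.46, SE 0.13, adjusted p = 0.0277) had the largest values. None was called by limma after median ratio scaling (5 of 10 at an unadjusted p-value under 0.05) or removal of the length trend (1 of 10), and ELK1 alone was called after quantile normalization (−0.37, adjusted p = 0.0215). For ELK1 the interaction as deposited stood beside 2 rises, of 0.26 with SB-3CT and 0.67 with IFNγ. Its deposited level with both, 46.9 ± 2.27 FPKM (SD, n = 3), was below that with IFNγ. After median ratio scaling the change between these 2 groups was 0.0036 (limma, adjusted p = 0.973), so that the level with both was not lower.

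With both agents, no test was made against control, and the levels are given as ratios of mean FPKM. ETV1 was at 0.523 of control, DUSP4 at 0.634, DUSP6 at 0.679, BRAF at 0.710, ETV4 at 0.756, ETV5 at 0.759 and DUSP5 at 0.808, and in each of these 7 genes all SB-3CT + IFNγ samples lay below all control samples, as in 45.4% of all genes. ELK1 was at 1.36 and EGR1 at 1.25 of control, with all samples above, as in 11.8% of all genes. ARAF was at 0.996, with the groups overlapping. Thus 9 of the 10 genes had groups that did not overlap, where 57.2% of all genes did so. After median ratio scaling, which was applied here after the data had been seen, 8 of the 10 did not overlap, 3 higher and 5 lower, where 24.8% of all genes were higher and 26.7% lower. DUSP5 (0.982 of control) and BRAF (0.864) then overlapped control, and ARAF, at 1.21 of control, had all samples above. ETV1 (0.636), DUSP4 (0.771), DUSP6 (0.826), ETV4 (0.919) and ETV5 (0.923) still lay below control, and ELK1 (1.66) and EGR1 (1.52) above it.

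Ratios of 2 genes within a sample do not move with a factor applied to the whole sample, such as the median ratio, but they do move with quantile normalization and with removal of the length trend, under which they were recomputed after the data had been seen. DUSP5 to DUSP6 was 0.273 ± 0.015 in control, 0.413 ± 0.036 with SB-3CT, 0.206 ± 0.026 with IFNγ and 0.326 ± 0.021 with SB-3CT + IFNγ (SD, n = 3), so that no 2 groups overlapped, but with the length trend removed SB-3CT + IFNγ, at 0.307 ± 0.021, overlapped control, at 0.279 ± 0.014 (SD, n = 3). EGR1 to DUSP6 was 0.130 ± 0.017 in control and 0.157 ± 0.018 with IFNγ, which overlapped, and 0.239 ± 0.019 with SB-3CT and 0.239 ± 0.033 with SB-3CT + IFNγ (SD, n = 3), above both, as also after quantile normalization and with the length trend removed. DUSP4 to DUSP6 was highest with SB-3CT, at 1.77 ± 0.035, and lowest with IFNγ, at 1.25 ± 0.0039 (SD, n = 3).

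Within the PEA3 group, ETV4 to ETV1 was 12.6 ± 0.45 in control and 10.4 ± 1.19 with IFNγ, against 18.4 ± 2.33 with SB-3CT and 18.1 ± 0.71 with SB-3CT + IFNγ (SD, n = 3). The samples with SB-3CT were all above those without, also after quantile normalization and with the length trend removed, where SB-3CT + IFNγ was at 16.1 ± 0.48 and 15.8 ± 0.32 (SD, n = 3). ETV4 to ETV5 was 4.56 ± 0.12, 3.87 ± 0.31, 5.12 ± 0.58 and 4.55 ± 0.31 in the same order (SD, n = 3), with control and IFNγ not overlapping. No test of these ratios was run, and the exact permutation test of a single value cannot give a p-value under 0.1 with 3 samples against 3.

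**Figure D4:**
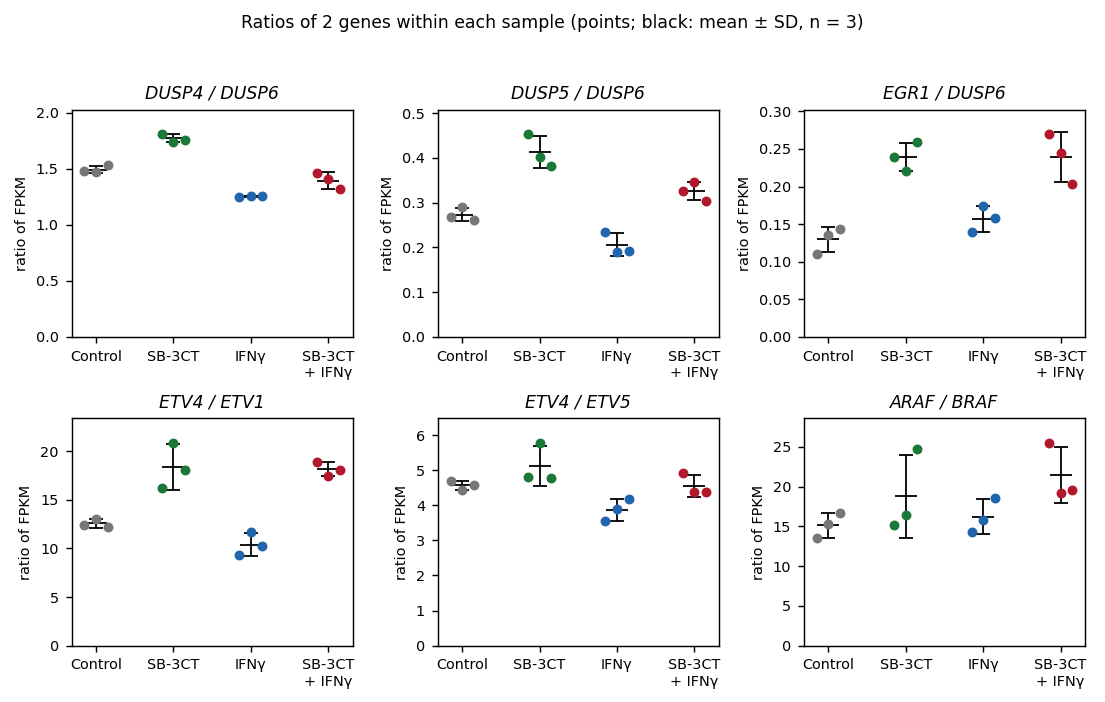
Ratio of the FPKM of 2 genes in each sample (points) by group, with the group mean and SD in black and each vertical axis starting at 0. The DUSP5 to DUSP6, EGR1 to DUSP6 and ETV4 to ETV1 ratios are higher in the samples with SB-3CT than in those without, given the same IFNγ state.

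The other genes of the pathway were read from lists written by hand, which are not published lists, and only genes with a mean of at least 1 FPKM are named or ranked. Of 14 other genes known to be induced by ERK, SB-3CT alone raised 4 and lowered 0, where it raised 5.37% and lowered 6.87% of all genes (median change 0.16, against −0.01 over all genes). Those with a mean of at least 1 FPKM were DUSP1, a nuclear phosphatase of MAP kinases (0.83, SE 0.06, adjusted p = 0.000948), the antiproliferative gene BTG2 (0.26) and the ephrin receptor EPHA2 (0.25). DUSP1 was at 9.25 ± 0.63 FPKM in control and 17.2 ± 0.36 with SB-3CT (SD, n = 3), and all 3 genes were called under the 4 scalings. IFNγ alone raised 3 of the 14 and lowered 3, where it raised 8.46% and lowered 11% of all genes (median −0.05, against −0.02). ERRFI1, a feedback inhibitor of EGFR (0.44), CYR61, a matrix protein (0.36), and CCND1, cyclin D1 (0.33), were called higher, and the immediate-early factor EGR3 (−0.56) and BTG2 (−0.52) lower, the third lower gene having a mean under 1 FPKM.

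SB-3CT added to IFNγ gave 0 higher and 4 lower of the 14, where 6.41% of all genes were higher and 31.5% lower. Their median was −0.05, against −0.09 over all genes and −0.20 over the 3177 genes with a mean of at least 1 FPKM. After median ratio scaling it gave 1 higher and 2 lower, where the shares of all genes were 15.5% and 16.5%. ERRFI1 went from 63.4 ± 8.33 to 37.6 ± 0.73 FPKM (SD, n = 3), a log2 change of −0.73 (SE 0.09, adjusted p = 0.00236), and was called lower under all 4 scalings. SB-3CT + IFNγ against SB-3CT gave 0 higher and 10 lower, where 7.85% of all genes were higher and 32.7% lower. The median of the 14 was −0.37, against −0.11 over all genes and −0.21 over the 3177. After median ratio scaling the counts were 0 and 7, where the shares were 13.4% and 11.1%. EGR3 (−0.87), BTG2 (−0.81) and EPHA2 (−0.58) had the largest falls among those with a mean of at least 1 FPKM. The interaction was called lower in 5 of the 14 and higher in 0, where 17.6% of all genes were lower, and likewise in 5 and 0 after median ratio scaling, where 5.59% were lower and 7.77% higher. ERRFI1 (−0.86, adjusted p = 0.00301) and DUSP1 (−0.76, adjusted p = 0.00552) had the largest values and were called under all 4 scalings, at −0.66 and −0.56 after median ratio scaling.

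Of 4 genes that ERK signaling is known to hold down, none was called higher in any of the 4 comparisons as deposited. Between 5.37% and 8.46% of all genes were called higher, so 0 of 4 is near that share. Under other scalings up to 2 were called higher with IFNγ alone or SB-3CT alone. Called lower were 1 with IFNγ alone and 1 with SB-3CT alone, where 11% and 6.87% of all genes were. SB-3CT added to IFNγ gave 3 lower, and SB-3CT + IFNγ against SB-3CT gave 2, where 31.5% and 32.7% of all genes were lower. ERBB3, a receptor that is also a melanocyte marker, was at 57.1 ± 0.64 FPKM in control, 45.5 ± 2.42 with SB-3CT, 43.6 ± 1.85 with IFNγ and 30.9 ± 1.62 with SB-3CT + IFNγ (SD, n = 3). It was called lower in all 4 comparisons, except that with the length trend removed it was not called for SB-3CT added to IFNγ (−0.02, adjusted p = 0.889). CDKN1B, the cell cycle inhibitor p27, was called lower for SB-3CT added to IFNγ under all 4 scalings, at −0.64 as deposited.

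Of 10 other dual-specificity phosphatases, 2 of which are also among the 14 induced genes, SB-3CT alone raised 2, DUSP1 and DUSP14 (0.31, adjusted p = 0.0181), against 5.37% of all genes, and IFNγ alone raised 1, DUSP10 (0.49, adjusted p = 0.00455), against 8.46% of all genes. SB-3CT added to IFNγ gave 0 higher and 3 lower as deposited, where 31.5% of all genes were lower, and 1 higher and 0 lower after median ratio scaling, where 15.5% were higher. The median change of the 10 was 0.11 with SB-3CT alone and −0.06 with IFNγ alone, against −0.01 and −0.02 over all genes.

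Of 13 measured ETS factors other than the members, IFNγ alone raised 5 and lowered 0, where it raised 8.46% of all genes (median 0.12, against −0.02). The largest rises were those of ETV6, a repressor (0.82, SE 0.09, adjusted p = 0.00183), ETS1 (0.68, SE 0.09, adjusted p = 0.00455) and ELF1 (0.47, SE 0.09, adjusted p = 0.0139), and all 3 were called under the 4 scalings. With SB-3CT alone limma called none of the 13, where 12.2% of all genes were called as deposited. Under the 3 other scalings it also called none of the 13, and 1 to 3 had an unadjusted p-value under 0.05 across the 4 scalings. SB-3CT added to IFNγ gave 0 higher and 8 lower, where 31.5% of all genes were lower, and 0 and 5 after median ratio scaling, where 16.5% were, with ELF1 (−0.77), ELK4 (−0.73) and ELK3 (−0.60) the largest, the last 2 being relatives of ELK1. ELF1 and ELK3 were called lower under all 4 scalings, and ELK4 was not called with the length trend removed (−0.24, adjusted p = 0.104).

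Of 15 receptors, adaptors and scaffolds upstream of RAF, IFNγ alone raised 2, the receptor kinases DDR2 (0.58) and AXL (0.44), and lowered 2, the scaffold ARRB1 (−0.47) and DDR1 (−0.28), against 8.46% and 11% of all genes. SB-3CT alone gave no call among the 15 in limma as deposited, where 3 had an unadjusted p-value under 0.05 and 12.2% of all genes were called. It gave 1 call after median ratio scaling and 2 with the length trend removed, all higher. SB-3CT added to IFNγ gave 0 higher and 9 lower, where 31.5% of all genes were lower. Their median was −0.28, against −0.09 over all genes and −0.20 over the 3177 genes with a mean of at least 1 FPKM. It gave 0 and 5 after median ratio scaling, where 16.5% of all genes were lower, and 1 and 0 with the length trend removed. The adaptor CRKL (−0.58), the ubiquitin ligase CBL (−0.56) and DDR2 (−0.55) had the largest values, none of which was called with the length trend removed.

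Likeness of pattern was measured as the root mean square difference between log2 values centered on their mean over the 12 samples, among 3167 genes with a mean of at least 1 FPKM. The deposited values were used, so the scale and length shifts of the SB-3CT + IFNγ samples enter the likeness. Shared regulation was not tested. The genes most like DUSP6 were BNIP3L (0.0432), CD44 (0.0454) and DPP8 (0.0479), against a median of 0.209 over all candidates and a spread of DUSP6 itself of 0.222. Those most like EGR1 were CLU (0.121), ACD (0.122) and EMC3-AS1 (0.123), against a median of 0.310. Those most like BRAF were BTBD10 (0.0607), CHEK1 (0.0685) and CSGALNACT2 (0.0736), against a median of 0.197. CD44, for one, was at 96.7 ± 1.72 FPKM in control, 87.8 ± 3.77 with SB-3CT, 99.8 ± 8.04 with IFNγ and 69.8 ± 1.14 with SB-3CT + IFNγ (SD, n = 3).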

How the data were processed

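RNA-seq was performed by the authors on 12 samples with 150-base paired-end reads, which were aligned to hg19 with hisat2 (HISAT2 2.0.5 in the submitters' processing notes), and StringTie (1.3.3) gave FPKM. The annotation and the strandedness of the libraries are not given in the sources used here. The deposited values are log2 values and fit log2(FPKM + 1) with a pseudocount of 1, since they back-transform to sums of 121928 to 129692 FPKM per sample. Because the planned tests assumed FPKM, no logarithm was taken again. All value columns could be assigned to a sample from their names (0 unused). Read numbers are unknown, so no counting error is given.

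Each comparison was fitted to its own 3 + 3 samples in limma 3.58.1 (R 4.3.3; lmFit, then eBayes with a variance trend; no pairing), and the interaction was fitted over all 12 samples. P-values were adjusted over 4918 genes. The functions were tested on simulated data. The alternatives were median ratio scaling, quantile normalization, a pseudocount of 0.1, a filter at a mean of 1 FPKM, a single fit of the 4 groups, a replicate block, omission of each sample, eBayes without trend, and removal of each sample's trend of FPKM with transcript length (lowess, span 0.5, summed FPKM kept). Of the 4918 symbols, 4458 were found in GENCODE release 44 (mapped to GRCh37) as written and 415 by an older name, and a transcript length was available for 98.5%.

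The members, lists and tests were chosen with earlier results of these data known. Named in the text are all 10 members, up to 3 of the largest rises and falls per list and comparison (adjusted p-value under 0.05, mean FPKM of at least 1), and the 3 genes most like DUSP6, EGR1 and BRAF.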

Additional observations from a re-analysis of the deposited data

Results flagged for a closer look

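As deposited, the interaction term of limma was called lower in 7 of the 10 genes (adjusted p-value under 0.05, 12 samples). Of all genes, 22.3% were called, 17.6% lower. On the log2 scale the 7 were DUSP4 (−0.36), DUSP6 (−0.26), EGR1 (−0.48), ELK1 (−0.49), ETV1 (−0.46), ETV4 (−0.30) and ETV5 (−0.36). EGR1, ELK1 and ETV4 had changes with SB-3CT of 0.56, 0.26 and 0.12 without IFNγ and of 0.08, −0.23 and −0.18 under IFNγ, but after median ratio scaling those under IFNγ were 0.29, 0.0036 and 0.0528. The median of the expressed genes was −0.19 in the same fit. After median ratio scaling the 7 values were −0.15, −0.06, −0.30, −0.29, −0.30, −0.10 and −0.16, and no gene was called (limma, lowest adjusted p = 0.0751). DUSP6, at an adjusted p-value of 0.0498 as deposited, was called in 1 of the 12 fits that left out a sample.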

How the results depend on the processing

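The 10 genes in 5 tests gave 50 results. A pseudocount of 0.1 kept the direction and the call of all 50, eBayes without trend of 49, the filter at 1 FPKM of 45, the replicate block of 41, and one fit of 4 groups of 36 of 40. Median ratio scaling and quantile normalization each kept 30, and removal of the length trend 24. With SB-3CT alone, the filter moved the genes called from 602 to 907. With SB-3CT + IFNγ against IFNγ, removal of the length trend moved the genes from 1862 to 910 and the members from 7 to 2. Against SB-3CT, the genes moved from 1994 to 1204 (median ratio) and 1265 (length) and the members from 7 to 4 in both. For the interaction, the genes moved from 1099 to 657 (median ratio), 640 (quantile) and 416 (length), and the members from 7 to 0, 1 and 0. The cause of these moves was not tested.

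With 1 sample left out, the genes called ranged from 562 to 982 (IFNγ), 73 to 912 (SB-3CT), 1230 to 1977 (SB-3CT + IFNγ against IFNγ) and 678 to 1450 (interaction), and the members from 1 to 3, 0 to 5, 3 to 8 and 4 to 8. The SB-3CT counts were 73 to 88 except without SB-3CT replicate 1 (912). Members called with IFNγ were 1 without any of the 3 control samples. Those of SB-3CT + IFNγ against IFNγ were 3 without IFNγ replicate 3 and 4 without SB-3CT + IFNγ replicate 2 or 3, and those of the interaction were 4 without SB-3CT replicate 1, IFNγ replicate 3 or SB-3CT + IFNγ replicate 3.

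Changes of sign occurred in values that were not called after the change. With IFNγ alone, BRAF was at −0.0006 (quantile) and −0.0531 (length), ETV1 at −0.0236 and ETV5 at −0.0355 (length), and with a sample left out BRAF ranged from −0.061 to 0.0511, DUSP6 from −0.108 to 0.0296 and ETV5 from −0.0157 to 0.0496. With SB-3CT alone, BRAF was at 0.0407 (quantile) and 0.0247 (length), DUSP4 at −0.0337 (quantile) and ETV5 at 0.0322 (length), and with a sample left out BRAF ranged from −0.147 to 0.0538, DUSP4 from −0.0263 to 0.0376 and ETV5 from −0.0721 to 0.0223. With SB-3CT + IFNγ against IFNγ, ARAF was at 0.125 (median ratio) and 0.0601 (length), ELK1 at 0.0036 and 0.0163, ETV4 at 0.0528 (median ratio), and BRAF at 0.0035 and DUSP4 at 0.115 (length). Against SB-3CT, ARAF was at 0.0583 (median ratio). The interaction was at 0.0439 for DUSP5 (quantile) and 0.0121 for DUSP6 (length).

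The same-numbered samples did not deviate together (correlations from −0.40 to 0.17 over the 4 comparisons), so the numbers were not taken to pair samples. Under the replicate block, 259 genes and 2 members (EGR1 and DUSP6) were called with SB-3CT alone, and the other counts stayed within 1.5 times.

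Read numbers are unknown, so the part of depth in the width of these intervals was not tested. The 95% interval of BRAF, at 1.32 to 2.51 FPKM, ran from −0.33 to 0.21 with SB-3CT alone, and that of DUSP5 from −0.75 to −0.09 with IFNγ alone.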
